A study of Mus musculus with 8 samples.

Results

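The 10 genes described here encode transcription factors and cofactors that work beside GATA2 in haematopoietic stem cells. They are Tal1, Lyl1, Lmo2, Ldb1, Runx1, Cbfb, Erg, Fli1, Etv6 and Gfi1b, a list of named genes that sets no condition on a measured value. All 10 were found among the 53715 gene identifiers of the count tables, and all 10 were among the 13992 genes with enough counts to be tested. Bone marrow stem cells came from 8 mice, 1 RNA library per mouse. 4 mice were wild type for Gata2 (WT) and 4 were labelled heterozygous for Gata2 with Mx1-Cre (Het). Mice of both genotypes were 8 to 12 weeks old and had received 6 doses of pIpC, and cells were sorted as LSK CD48- CD150+. pIpC is a double-stranded RNA mimic that induces interferon, and Mx1-Cre is a recombinase driven by an interferon-inducible promoter that acts in many cell types. The labels name Mx1-Cre for the Het mice alone and do not say whether the WT mice carried it or which part of Gata2 was targeted.

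GATA2 is a zinc-finger protein that binds GATA motifs in the enhancers of stem cell genes. SCL (gene Tal1) and LYL1 are related basic helix-loop-helix proteins that pair with E proteins on E-box motifs, and LMO2 and LDB1 bridge them to GATA factors in one complex. RUNX1 binds DNA together with CBFβ (gene Cbfb), ERG and FLI1 are closely related ETS activators, ETV6 is an ETS repressor, and GFI1B is a repressor that recruits a histone demethylase. These factors occupy many enhancers together with GATA2 in blood stem and progenitor cells, and several of them are needed to form or keep stem cells.

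None of the 10 genes differed between the genotypes by the test across all genes, and for every one of them the values of the WT and Het libraries overlapped. Gfi1b (fold 0.639), Lyl1 (0.626) and Runx1 (0.767), all with lower means in Het, came closest to the threshold before adjustment. Lmo2 (fold 1, 95% interval 0.879 to 1.14), Fli1 (1.05, 0.878 to 1.26) and Tal1 (1.09, 0.877 to 1.37) had the narrowest intervals on the log scale. Of all pairs Lyl1 and Gfi1b had the highest correlation from mouse to mouse, which did not pass after adjustment (r = 0.862, exact permutation p = 0.00565, adjusted 0.311). The levels of both followed how strongly a library favoured GC-rich genes. This was bulk RNA, so a lower level may stand for fewer cells with the transcript or for less transcript per cell, which cannot be told apart.

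Levels are given below in CPM, the share of a library's fragments that were counted for a gene, put on one common scale by the trimmed mean of M-values (TMM). Gata2 itself was at 30.1, 45.3, 29.1 and 38.5 CPM in WT replicates 1 to 4 and at 35.5, 61.9, 36.7 and 45.1 CPM in Het replicates 1 to 4. Its fold in Het over WT was 1.25 (95% interval 0.873 to 1.8, edgeR adjusted p = 0.858), so the transcript was not lower in the libraries labelled Het. Counts summed over all exons do not show whether 1 allele carried a deletion, and the genotype is used here as labelled. Library totals ran from 16750778 to 22861884 fragments. The summed level of 8 stem cell markers, among them Kit, Ly6a (Sca-1) and Slamf1 (CD150), ran from 636 to 804 CPM in WT and from 722 to 798 CPM in Het. Within that sum Ly6a was higher in all 4 Het libraries (124 to 156 CPM) than in WT (77.1 to 117 CPM), where 3.47% of all tested genes did not overlap. Slamf1 had a fold of 0.705, and neither gene passed (edgeR adjusted p = 0.85 for both). Cd48, against which cells were sorted, was at 23.5 ± 2.59 CPM in WT and 24.4 ± 6.41 CPM in Het (SD, n = 4). Of the markers of other lineages, Pax5, Cd3e, Cd3g, Trbc2, Cd8a and Slc4a1 had 0 counts in all 8 libraries. Some other markers of such lineages were well counted. Nkg7 (T and NK cells) was at 228 to 432 CPM in WT and 312 to 510 CPM in Het. Klrb1c, the only other tested marker of that list, was at 3.7 to 6.08 CPM in WT and 0 to 2.88 CPM in Het. It thus did not overlap, as 3.47% of all tested genes did not, and did not pass (edgeR adjusted p = 0.85). Cd79b (B cells) was at 104 to 129 CPM in WT and 103 to 125 CPM in Het. The other 5 B cell markers summed to 0.496 to 7.66 CPM in WT and 0.15 to 1.69 CPM in Het. Granulocyte and monocyte markers, led by Prtn3, summed to 197 to 281 CPM in WT and 163 to 278 CPM in Het. Mast cell and basophil markers summed to 15 to 40.9 CPM in WT and 16.8 to 24.5 CPM in Het.

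Promoter sequence is shown for Lyl1 and Gfi1b, the pair with the highest correlation across the mice (not passing after adjustment), and for Tal1, the relative of Lyl1, whose r was negative with both. Each stretch is the 250 bases before the annotated start site in RefSeq on GRCm38.p6, read 5′ to 3′ on the gene's strand. Capitals mark letters that match a motif read by one of these factor families on either strand. The motifs searched were AGATAA and TGATAA for GATA factors, CAGNTG (an E-box) for SCL and LYL1, GGAAGT and CCGGAA for ETS factors, and TGTGGT for RUNX factors. No pair of marked matches overlaps.

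Tal1: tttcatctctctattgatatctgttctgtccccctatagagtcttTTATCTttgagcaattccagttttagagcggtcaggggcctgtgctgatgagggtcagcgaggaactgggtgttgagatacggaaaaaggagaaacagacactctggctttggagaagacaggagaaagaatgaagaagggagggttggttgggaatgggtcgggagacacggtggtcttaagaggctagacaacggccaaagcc
Lyl1: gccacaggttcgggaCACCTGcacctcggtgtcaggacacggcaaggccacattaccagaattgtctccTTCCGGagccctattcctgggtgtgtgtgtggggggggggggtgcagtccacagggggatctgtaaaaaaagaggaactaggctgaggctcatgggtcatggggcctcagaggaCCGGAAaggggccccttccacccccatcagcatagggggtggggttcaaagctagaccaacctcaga
Gfi1b: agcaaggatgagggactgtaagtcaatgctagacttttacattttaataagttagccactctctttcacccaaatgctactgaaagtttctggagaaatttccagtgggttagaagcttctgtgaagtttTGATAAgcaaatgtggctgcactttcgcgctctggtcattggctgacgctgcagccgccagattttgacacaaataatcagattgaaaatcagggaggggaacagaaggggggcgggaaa

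The Tal1 stretch (chr4:115056176-115056425, plus strand) holds AGATAA on the opposite strand, starting 205 bases before the start site, a motif present in 9.99% of all 32851 mouse promoters of that length. This is the first of the start sites listed for Tal1. The Lyl1 stretch (chr8:84701207-84701456, plus strand) holds an E-box match 235 bases before the start and CCGGAA at 181 and 67 bases before it. E-box letters occur in 44.8% of all promoters and CCGGAA in 12%. The Gfi1b stretch (chr2:28621983-28622232, minus strand) holds TGATAA 120 bases before the start, found in 7.94% of promoters. None of the 3 stretches lies in an annotated exon. So the promoters of Lyl1 and Gfi1b share no marked motif within this window, which is a statement about letters only. RefSeq promoter entries were matched for 8 of the 10 genes, and Lmo2 and Fli1 had none. Among the other 5 matched genes, both GATA and E-box letters stood together in 1 entry each of Ldb1 (AGATAA at 240 and 200 bases before the start, an E-box at 247) and Erg (AGATAA at 103, an E-box at 217). The other entries of Ldb1 and Erg held none of the motifs. In all 14 entries of the 8 genes were searched, and the share of all promoters that hold both kinds of letters was not counted. The GGAAGT motif, present in 19.7% of promoters, was found for Cbfb alone, and TGTGGT, present in 14%, for none of the 8.

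Per length of exon, in TPM (a scale like CPM that also divides by exon length), the 10 genes spanned a wide range in WT cells. Lmo2 was highest at 771 ± 109 TPM (SD, n = 4) and stood first of the 10 in all 8 libraries. It was at the 98.5 percentile of all tested genes, whose median was 10.3 TPM. Fli1 followed at 248 ± 21.3 TPM, Gfi1b at 170 ± 67.4 TPM and Cbfb at 102 ± 27.4 TPM. Lyl1 stood at 61.4 ± 28.2 TPM, Etv6 at 47.0 ± 19.0 TPM and Tal1 at 28.9 ± 3.60 TPM. The set's lower end held Runx1 at 17.9 ± 2.81 TPM, Erg at 17.9 ± 6.41 TPM and Ldb1 at 3.00 ± 2.64 TPM. Gata2 was at 17.7 ± 4.85 TPM, level with Runx1 and Erg.

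In this order, 3 neighbouring pairs did not overlap in their WT ranges, namely Lmo2 over Fli1, Tal1 over Runx1 and Erg over Ldb1. Each of these 3 steps was also seen in all 8 libraries. Runx1 and Erg could not be ordered, since Runx1 was the higher in 4 of 8 libraries, and neither could Lyl1 and Etv6, with Lyl1 the higher in 4 of 8. Gfi1b was above Cbfb in 5 of 8 libraries. The order in Het means was the same except that Cbfb (106 TPM) stood above Gfi1b (102 TPM), Etv6 (41.1 TPM) above Lyl1 (35.8 TPM) and Erg (18.9 TPM) above Runx1 (13.1 TPM). The spread among WT mice also differed between genes. The coefficient of variation in WT was 8.59% for Fli1, 12.5% for Tal1 and 14.1% for Lmo2, but 39.6% for Gfi1b, 45.9% for Lyl1 and 87.8% for Ldb1.

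**Figure D1:**
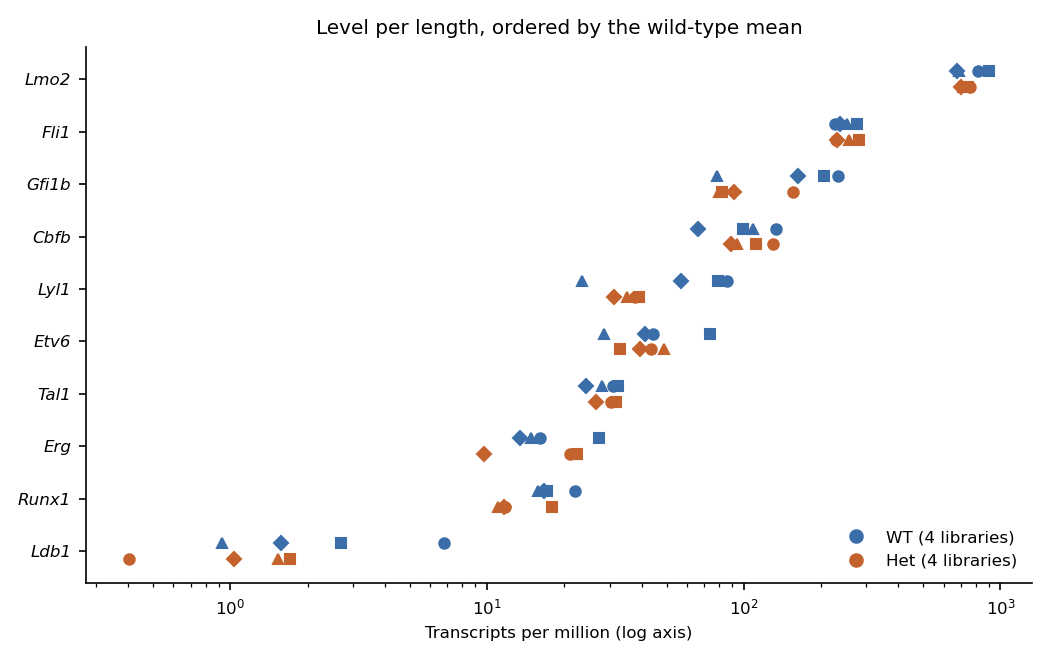
Level of each gene per exon length in TPM (horizontal log axis) in 4 WT (blue) and 4 Het (orange) libraries, 1 point per library, with symbols for replicate numbers. Genes are ordered by their WT mean, from Lmo2 at 771 TPM down to Ldb1 at 3.00 TPM.

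The genotype comparison asked whether these factors changed in cells labelled Gata2 heterozygous, using edgeR's quasi-likelihood test with Benjamini-Hochberg adjustment over 13992 genes. At an adjusted p under 0.05, 0 of the 10 genes were called, where 0% of all tested genes were called. At an unadjusted p under 0.05 edgeR gave 0 of the 10, against 5.66% of all tested genes. DESeq2 called 0 of the 10 after adjustment, against 0.505% of the genes it tested, and 2 of the 10 before adjustment, Lyl1 and Gfi1b, against 8.87% of those genes. In 0 of the 10 did the 4 WT and 4 Het values fail to overlap, against 3.47% of all tested genes. 5 of the 10 had a higher and 5 a lower fitted level in Het, and their median was -0.05 on the log2 scale. Over all tested genes 6712 were higher and 7280 lower, with a median of -0.02. The smallest adjusted p of any gene was 0.834.

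**Figure D2:**
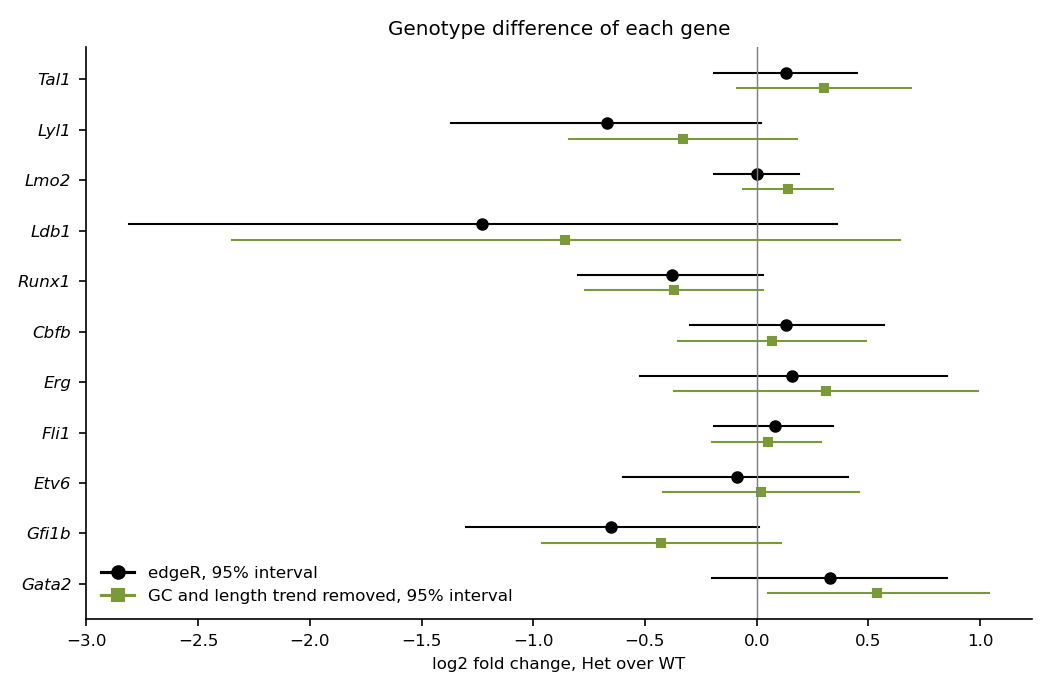
Fitted log2 fold change of Het over WT for the 10 genes and Gata2 (horizontal axis), with 95% intervals from edgeR in black and from the fit with the GC and length trend removed in green. In black every interval includes 0, with fitted values from Gata2 at 0.33 down to Ldb1 at -1.23. In green the interval of Gata2 (0.05 to 1.04) lies above 0.

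Tal1, also known as Scl, is the helix-loop-helix factor needed to specify blood (chromosome 4, 115056426 to 115071755, plus strand, GRCm38). It was at 48.5, 48.9, 51.2 and 41.9 CPM in WT and at 51.1, 55.6, 55.3 and 46.6 CPM in Het. The Het values were slightly the higher but lay across the WT range, with a log2 fold change of 0.13 (SE 0.14, edgeR adjusted p = 0.914, exact permutation p = 0.2). All exact permutation tests reported here are two-sided over the 70 ways of assigning the 8 libraries, and the smallest p they can give is 0.0286.

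Lyl1, which can stand in for SCL in adult stem cells, lies on chromosome 8 (84701457 to 84704715, plus strand). It was at 55.3, 49.5, 17.6 and 40.7 CPM in WT and at 26.0, 27.9, 25.7 and 22.6 CPM in Het. 3 WT libraries stood above all Het libraries, and WT replicate 3 stood below all of them. The 4 Het values were close together, with an SD of 2.21 CPM against 16.6 CPM in WT. The fold in Het over WT was 0.626 (95% interval 0.386 to 1.02, log2 fold change -0.67, SE 0.31, edgeR adjusted p = 0.85, exact permutation p = 0.2). Without WT replicate 3 the log2 fold change was -0.93 and the edgeR adjusted p was 0.159.

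The balance of the helix-loop-helix relatives within a library, Tal1 over Lyl1 per length, was 0.361, 0.406, 1.20 and 0.423 in WT. In Het it was 0.808, 0.819, 0.885 and 0.849. Thus Lyl1 was the higher of the pair in 3 WT libraries and in all 4 Het libraries, and Tal1 in WT replicate 3 alone. The Het ratios lay inside the WT range.

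Lmo2, the LIM-only bridge of the complex (chromosome 2, 103957986 to 103981878, plus strand), was at 635, 676, 621 and 580 CPM in WT. In Het it was at 630, 646, 628 and 609 CPM. The Het libraries all lay within the WT range, and both means were 628 CPM. The 95% interval of the fold, 0.879 to 1.14, was the narrowest of the 10, on 10558 to 15343 counts per library.

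Ldb1, which dimerizes and is known for joining enhancers to promoters, lies on chromosome 19 (46032593 to 46045214, minus strand). It was at 8.73, 3.35, 1.39 and 2.25 CPM in WT and at 0.551, 2.45, 2.24 and 1.48 CPM in Het. WT replicate 1 stood alone at the top and Het replicate 1 alone at the bottom, and the other 6 libraries mixed. Only 11 to 211 counts per library lay behind these values. The fold was 0.428 with a 95% interval of 0.142 to 1.28 (edgeR adjusted p = 0.85), and the log2 fold change moved from -1.23 to -0.46 without WT replicate 1. No exon base of Ldb1 was shared with another gene on its strand, and 4.94% of its exon bases lay opposite exons of another gene, with strand-specific counting. The fitted difference lay within the spread among the WT mice, and the ratio of Lmo2 to Ldb1 per length spread as widely, 120 to 740 in WT and 437 to 1890 in Het.

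Runx1, the DNA-binding subunit of core-binding factor, lies on chromosome 16 (92601466 to 92826149, minus strand). It was at 93.3, 70.1, 77.8 and 78.4 CPM in WT and at 53.0, 84.5, 52.9 and 54.9 CPM in Het. 3 of the 4 Het libraries were below every WT library, and Het replicate 2 was above all WT libraries but replicate 1. The fold was 0.767 (95% interval 0.575 to 1.02, log2 fold change -0.38, SE 0.19, edgeR adjusted p = 0.85, exact permutation p = 0.114). Without Het replicate 2 the log2 fold change was -0.58, which did not pass either (edgeR adjusted p = 0.982).

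Cbfb, its partner that does not bind DNA itself, lies on chromosome 8 (105170674 to 105217989, plus strand). It was at 165, 120, 158 and 91.4 CPM in WT and at 172, 156, 134 and 124 CPM in Het. The values spread widely in both genotypes and overlapped (log2 fold change 0.13, SE 0.19, edgeR adjusted p = 0.933). Runx1 over Cbfb per length was 0.166, 0.172, 0.145 and 0.252 in WT and 0.0904, 0.160, 0.117 and 0.130 in Het. 3 Het ratios were below all WT ratios, and Het replicate 2 was inside their range.

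Among the ETS factors, Erg (chromosome 16, 95359169 to 95586593, minus strand) was at 19.9, 32.8, 21.4 and 18.4 CPM in WT. In Het it was at 28.0, 30.9, 31.3 and 13.5 CPM, so that 3 Het libraries stood above 3 of the WT libraries and Het replicate 4 below them all. The fold was 1.12, with a 95% interval of 0.695 to 1.81 (edgeR adjusted p = 0.947). The log2 fold change of 0.16 was 0.39 without WT replicate 2 and 0.38 without Het replicate 4. ERG is required to maintain stem cells in adult marrow.

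Fli1 (chromosome 9, 32422204 to 32542861, minus strand), its close relative and a driver of megakaryocyte genes, was at 282, 332, 367 and 328 CPM in WT. The Het values were 303, 390, 364 and 323 CPM, spread over the same range. The log2 fold change was 0.08 (SE 0.12, edgeR adjusted p = 0.936). Within each library Erg was far below Fli1 per length, at a ratio of 0.0563 to 0.0995 in WT and 0.0421 to 0.0929 in Het.

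Etv6, the ETS repressor known from leukaemia fusions with Runx1, lies on chromosome 6 (134035700 to 134270158, plus strand). It was at 95.2, 152, 71.4 and 97.7 CPM in WT and at 99.4, 78.6, 119 and 94.2 CPM in Het. WT replicate 2 was the highest and WT replicate 3 the lowest of all 8, with the Het libraries between them. The log2 fold change was -0.09 (SE 0.23, edgeR adjusted p = 0.955), and its sign turned with some settings.

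Gfi1b, the repressor that restrains stem cell cycling and is needed for red cells and platelets, lies on chromosome 2 (28609450 to 28621982, minus strand). It was at 152, 131, 59.8 and 118 CPM in WT and at 108, 59.8, 59.3 and 67.0 CPM in Het. 3 WT libraries stood above all Het libraries, while WT replicate 3 lay with the lower Het libraries. The fold was 0.639 (95% interval 0.405 to 1.01, log2 fold change -0.65, SE 0.29, edgeR adjusted p = 0.85, exact permutation p = 0.143). Without WT replicate 3 it was -0.86 and without Het replicate 1 -0.88 on the log2 scale. Gfi1, the paralogue of Gfi1b, was thinly counted, at 4.56 ± 2.16 CPM in WT and 3.62 ± 2.02 CPM in Het (SD, n = 4).

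**Figure D3:**
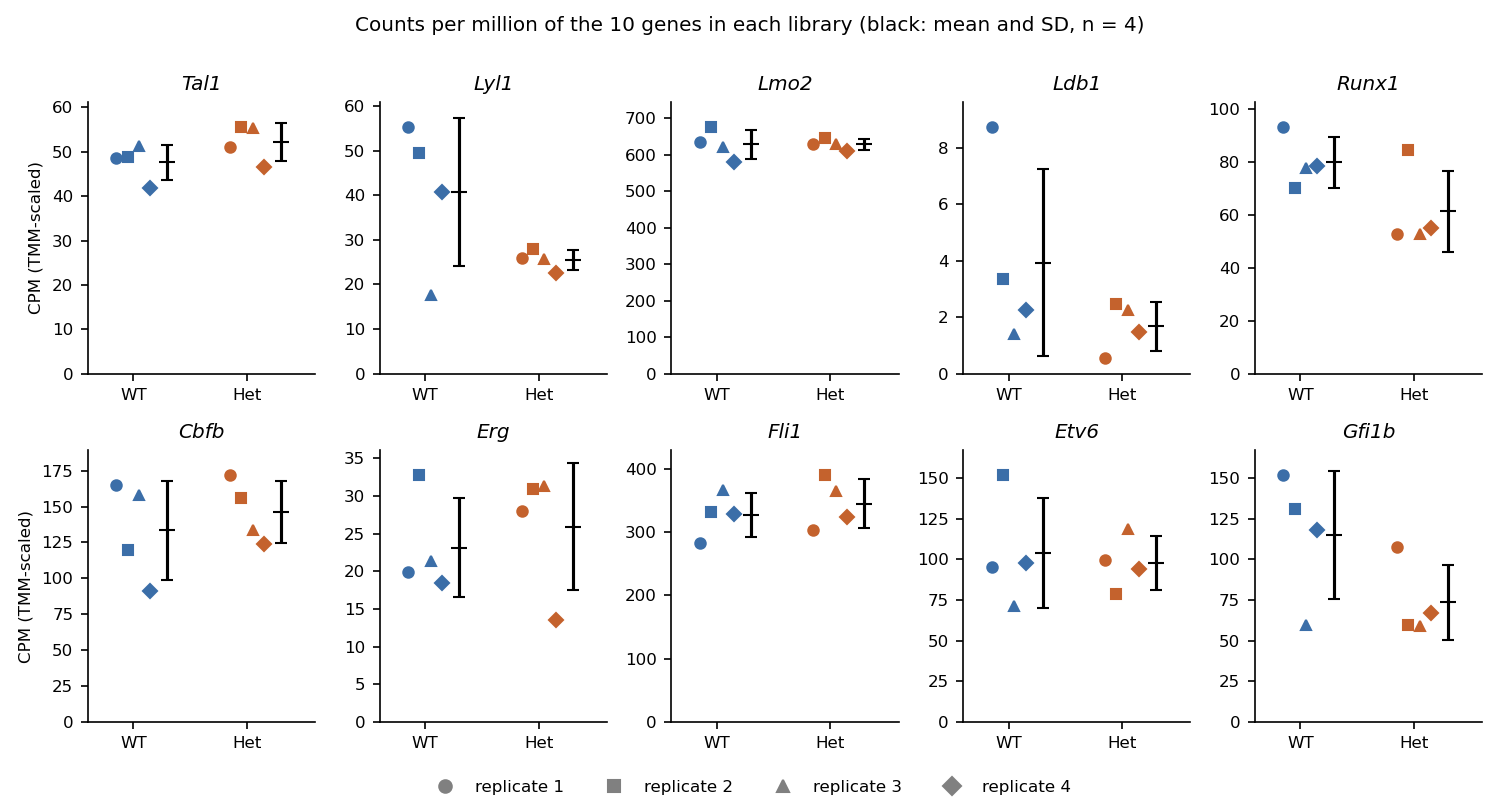
CPM of the 10 genes (vertical axes from 0, a separate scale per gene) in the 4 WT (blue) and 4 Het (orange) libraries, with symbols for replicate numbers and black bars for the mean and SD. In Lyl1 and Gfi1b 3 WT libraries lie above all Het libraries and WT replicate 3, at 17.6 and 59.8 CPM, lies with or below them, and Lmo2 is level in all 8.

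Markers of the megakaryocyte and red cell lineages, in which Gfi1b and Tal1 are also active, were read beside these values. The summed CPM of 8 megakaryocyte and platelet markers was 659 to 941 in WT and 492 to 804 in Het, and was highest in WT replicate 3, where Gfi1b was low. Pf4 held most of that sum. The other 7 markers summed to 160, 196, 128 and 160 CPM in WT and to 84.5, 128, 105 and 130 CPM in Het, so that without Pf4 WT replicate 3 was the lowest WT library. 8 erythroid markers summed to 32.2 to 72.9 CPM in WT and 14.8 to 37.4 CPM in Het, with Slc4a1 at 0 throughout. 6 endothelial markers, a lineage that shares Erg, Fli1 and Tal1, summed to 97.4 to 113 CPM in WT and 66.2 to 96.6 CPM in Het. These ranges did not overlap, but the highest Het sum lay just under the lowest WT sum. Taken singly, 0 of the 4 tested endothelial genes failed to overlap, against 3.47% of all tested genes. Nearly all of the endothelial sum came from Pecam1, Emcn and Esam, while the defining markers Cdh5, Kdr and Plvap had WT means of 0.0627, 0.774 and 0.0827 CPM. Their Het means, 0.239, 1.44 and 0.521 CPM, were the higher, all on very few counts. The part of these cell types in the levels of the 10 genes was not tested.

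Sex was read from Xist and Y-linked counts, replicates 1 and 4 being female and 2 and 3 male in both genotypes. In females (2 against 2) the mean log2 difference of Het from WT was -0.97 for Lyl1, -0.66 for Runx1, -0.65 for Gfi1b and -2.17 for Ldb1. In males it was -0.14 for Lyl1, -0.14 for Runx1, -0.57 for Gfi1b and 0.11 for Ldb1. Gfi1b was thus the most even of the 4 between the sexes, and whether the sexes differed was not tested.

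Base composition moved with Lyl1 and Gfi1b. GC content here is that of a gene's longest annotated transcript. It is 62.6% for Lyl1 and 57.5% for Gfi1b, the first the highest and the other the third highest of the 10, after Ldb1 at 57.9%. The tilt of a library was measured as the correlation, across genes, of a gene's log2 level relative to the 8-library mean with its GC content. It was 0.180, 0.232, -0.162 and 0.0402 in WT and -0.0342, -0.0873, -0.0988 and -0.0366 in Het. 3 WT libraries thus favoured GC-rich genes and WT replicate 3 disfavoured them more than any Het library did. These are the same 3 WT libraries in which Lyl1 and Gfi1b were high.

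Over the 8 libraries, Lyl1 followed this tilt with r = 0.929 (exact permutation p = 0.00112, adjusted over 11 relations 0.00614) and rho = 0.857 (exact permutation p = 0.0107, adjusted 0.0589). Without WT replicates 1 and 2, the libraries farthest from the median tilt, r was 0.841. Gfi1b gave r = 0.880 (exact permutation p = 0.00112, adjusted 0.00614) and rho = 0.952 (exact permutation p = 0.00114, adjusted 0.0125), with r = 0.823 without the same libraries. The tilt was computed over all genes, including these, and the relation held after taking out the genotype means, with r = 0.903 for Lyl1 and 0.83 for Gfi1b. How many of all tested genes followed the tilt as closely was not counted, so the relation is not shown to be particular to Lyl1 and Gfi1b. None of the other 8 genes or Gata2 passed. Gata2, at 58.2% GC, gave r = -0.00631 over the 8 libraries and 0.325 after taking out the genotype means. High GC content thus did not always go with as close a relation to the tilt.

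Among all tested genes the third with the highest GC had a median log2 fold change of -0.16, with 64.4% lower in Het. The third with the lowest GC had a median of 0.08, with 39.1% lower. With the trend in GC and length removed from each library, the log2 fold change of Lyl1 was -0.33 in place of -0.67 and that of Gfi1b -0.43 in place of -0.65. Runx1, at 46.4% GC, kept a value of -0.37, and Ldb1 moved to -0.86. Gata2 moved to 0.54, with an unadjusted edgeR p of 0.0343 that did not pass after adjustment. Because tilt and genotype overlap in these libraries, how much of the lower Lyl1 and Gfi1b means belongs to either cannot be told apart.

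**Figure D4:**
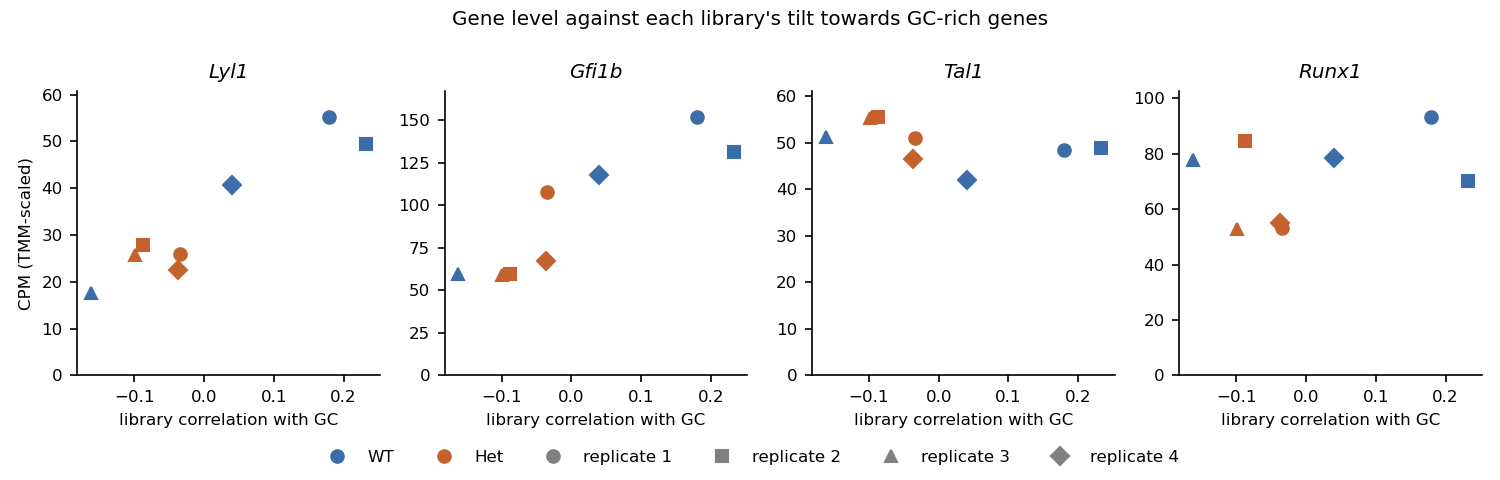
CPM of Lyl1, Gfi1b, Tal1 and Runx1 (vertical axes from 0) against each library's correlation of gene level with GC content (horizontal axis), for 4 WT (blue) and 4 Het (orange) libraries. Lyl1 (r = 0.929) and Gfi1b (r = 0.880) climb with the tilt from WT replicate 3 at the left to WT replicates 1 and 2 at the right, and Tal1 and Runx1 do not.

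Each of the 10 genes was then compared with each other and with Gata2 from mouse to mouse, 55 pairs in all. No pair passed after adjustment, and 3 of the 55 had an unadjusted exact permutation p under 0.05. Chance alone puts a share of about 0.05 of pairs under that threshold, near what was seen. Lyl1 and Gfi1b had the highest r, 0.862 (exact permutation p = 0.00565, adjusted 0.311), with rho = 0.833 (exact permutation p = 0.0154, adjusted 0.423). Their r was 0.671 without WT replicates 1 and 2, 0.808 within genotypes, and 0.707 after the GC and length trend was removed. Fli1 and Gfi1b ran against each other, with r = -0.809 (exact permutation p = 0.0206, adjusted 0.473) and rho = -0.690 (exact permutation p = 0.0694, adjusted 0.636). That r was -0.658 without Het replicate 2 and WT replicate 1, and -0.719 without the GC trend.

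Lyl1 and Ldb1 gave r = 0.737 (exact permutation p = 0.0289, adjusted 0.473) and rho = 0.833 (exact permutation p = 0.0154, adjusted 0.423). The r dropped to 0.327 without WT replicates 1 and 2, so its size depended on those libraries. With all 8 libraries kept it was 0.644 within genotypes and 0.666 after the GC and length trend was removed. Tal1 and Lmo2, partners in the complex, gave r = 0.599 (exact permutation p = 0.113, adjusted 0.777) and rho = 0.476 (exact permutation p = 0.243, adjusted 0.743), and r = -0.00952 without WT replicate 4 and Het replicate 2. With the GC and length trend removed their r was 0.966. So corrected, other pairs of the complex were negative: Lyl1 and Lmo2 at -0.674, Tal1 and Lyl1 at -0.651, Lmo2 and Ldb1 at -0.285, Tal1 and Ldb1 at -0.255. Lyl1 and Ldb1, at 0.666, were the only other positive pair among them. Tal1 and Lmo2 are 52.8% and 53.9% GC, and the part of the shared correction in the value of 0.966 was not tested. Of the 45 pairs among the 10 genes, 26 had a positive r. Gata2 had a positive r with 6 of the 10, the largest being 0.467 with Fli1.

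**Figure D5:**
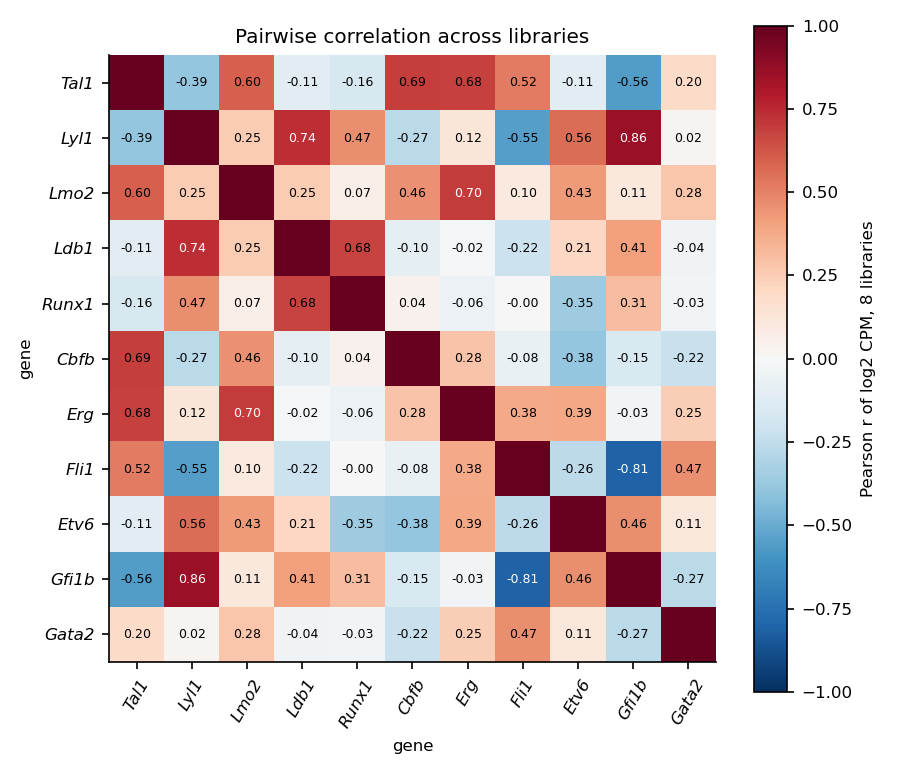
Pearson r of log2 CPM over the 8 libraries for each pair of the 10 genes and Gata2, in red where positive and blue where negative. The deepest red off the diagonal is Lyl1 with Gfi1b (0.86), the deepest blue Fli1 with Gfi1b (-0.81), and no pair passed after adjustment over 55.

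The genes whose pattern over the 8 libraries was most like each factor were sought among the 7353 tested genes that averaged 10 CPM or more. For Lyl1 they were Ccnd3, a D-type cyclin, with r = 0.982, and Tars2, a mitochondrial threonyl-tRNA synthetase, with r = 0.981. For Gfi1b they were Tubgcp2, a subunit of the γ-tubulin complex, with r = 0.979, and Pheta2 with r = 0.978. Ldb1 was most like Mtf1, the metal-responsive transcription factor, with r = 0.973, and Tcn2, the vitamin B12 carrier, with r = 0.944. Tal1 was most like Birc6 (r = 0.950) and Cep170 (r = 0.946), and Lmo2 most like Rhobtb3 (r = 0.958) and Heatr6 (r = 0.940). For Runx1 they were Phf23 (r = 0.957) and LTO1 (r = 0.932), and for Cbfb they were Ctsc (r = 0.963), the protease cathepsin C, and Poglut1 (r = 0.928). Among the ETS factors, Erg was most like Zfp938 (r = 0.951) and Spag7 (r = 0.943), Fli1 most like Ndufaf4 (r = 0.973) and Tbcb (r = 0.968), and Etv6 most like Treml2 (r = 0.968) and Smarcb1 (r = 0.961). These are the highest of 7353 correlations per factor over 8 libraries that differ in depth and base composition, and none of the listed genes is another of the 10.

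The genes that work around these factors were read in 7 lists, none of which held a gene called by edgeR or by DESeq2. E proteins pair with SCL and LYL1 on DNA, and Id proteins hold E proteins off DNA. Of these 6 tested genes 5 were higher in Het and 1 lower, with a median of 0.26 on the log2 scale. None had an unadjusted edgeR p under 0.05, against 5.66% of all tested genes. Tcf3 (E2A) was at 5.88 ± 2.10 CPM in WT and 9.44 ± 2.09 CPM in Het, a log2 fold change of 0.68 (SE 0.37), and Id1 gave 0.94 (SE 0.52). The other E proteins, Tcf4 and Tcf12, gave 0.15 and 0.19.

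Of 9 tested LIM-only, LDB, single-stranded DNA-binding and ETO family genes, 2 were higher and 7 lower, with a median of -0.06. Ssbp4, whose family protects LDB1 from degradation, was at 12.1 ± 7.37 CPM in WT and 5.65 ± 0.627 CPM in Het (log2 fold change -1.10, SE 0.53). At 64.3% GC it moved to -0.66 with the GC trend removed. Runx1t1 gave -0.84, Ssbp2 -0.11 and Rlim, a ubiquitin ligase for LDB1, 0.10. The RUNX relatives split, with Runx3 at -0.56 and Runx2 at 0.20. Of 13 other ETS factors 5 were higher and 8 lower, with a median of -0.14, and the 4 with the smallest unadjusted p were Elk4 (0.27), Ets1 (0.25), Elk3 (-0.38) and Elf2 (-0.15).

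Among the 4 GATA factors and their cofactor FOG1 (gene Zfpm1), 3 were lower. Gata3 was at 47.1 ± 21.6 CPM in WT and 28.0 ± 3.61 CPM in Het, a log2 fold change of -0.75 (SE 0.32). It was the only one of the 4 with an unadjusted edgeR p under 0.05, against 5.66% of all tested genes. Its WT and Het values overlapped (edgeR adjusted p = 0.85, exact permutation p = 0.2). Gata1, the GATA factor of red cells and platelets, was at 40.4, 40.3, 21.2 and 41.9 CPM in WT and at 19.1, 15.5, 7.47 and 35.6 CPM in Het. As for Gfi1b and Lyl1, WT replicate 3 was the lowest WT library, and the log2 fold change of Gata1 was -0.89 (SE 0.43, edgeR adjusted p = 0.85). Zfpm1 gave -0.75 (SE 0.59).

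GFI1B silences genes through LSD1 (gene Kdm1a), CoREST and histone deacetylases. Of its paralogue and 7 corepressor genes, 3 were higher and 5 lower, with a median of -0.01. Kdm1a was at 36.7 ± 8.01 CPM in WT and 52.3 ± 13.3 CPM in Het (log2 fold change 0.51, SE 0.23). Hdac1, at -0.42 (SE 0.18), was the only gene of this list with an unadjusted edgeR p under 0.05, against 5.66% of all tested genes. Both Kdm1a and Hdac1 failed after adjustment. Hmg20b gave -0.24 and Gfi1 -0.33.

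Described targets of SCL, RUNX1 and ETS factors in blood cells were mostly the lower in Het. Of 14 tested, 2 were higher and 12 lower, and their median was -0.50 on the log2 scale, beside 52% lower and a median of -0.02 over all tested genes. 3 of the 14 had an unadjusted p under 0.05 by edgeR, against 5.66% of all tested genes, and none passed after adjustment. Among these 3 were Itga2b, the integrin CD41, at -0.69 (SE 0.24), and Tek, the angiopoietin receptor TIE2, at -0.69 (SE 0.28). Gp1ba, a platelet von Willebrand factor receptor, was outside these 3 and gave -0.81 (SE 0.39). Hhex, outside the naming rule and named after its values were seen, was the 1 gene of the list whose genotypes did not overlap, at 62.3 to 70.3 CPM in WT and 43.0 to 60.8 CPM in Het, where 3.47% of all tested genes did not overlap. Several of these genes are also megakaryocyte markers, whose summed level is given above, and the part of such cells was not tested. The list was assembled with earlier results of these libraries known, so its direction is a description of them.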

How the data were processed

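Ribosome-depleted total RNA was made into strand-specific libraries and sequenced as paired reads of 75 bases, per the labels' protocols. Per the submitters' processing notes, the tools were Trim Galore, cutadapt and STAR 2.5.1b, and the build was GRCm38. The deposited values are raw fragment counts per gene, not normalized, summed over exons of GENCODE M17 in reverse-stranded mode, per the file headers. The version of featureCounts is 1.6.2 in the headers but 1.5.1 in the notes. The options listed in the headers do not count fragments that map to more than 1 place.

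From these counts, edgeR 4.0.16 (TMM scaling, filterByExpr, robust quasi-likelihood test on genotype alone) was fitted to 13992 genes in 8 libraries, with Benjamini-Hochberg adjustment and a threshold of 0.05. CPM were TMM-scaled, log2 CPM carried a prior count of 2, and TPM used the exon length in the files. Single values were tested by exact permutation, and correlations by exact permutation of the pairing. The alternatives were other scalings, DESeq2 1.42.0, limma voom (limma 3.58.1), other filters, a sex term, a replicate block, removal of the GC and length trend (loess, span 0.3), and leaving out each library. The fitting steps were tested on simulated data.

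Symbols came from GENCODE M21 of the same build (53620 of 53715 identifiers matched), and promoters from RefSeq. GC content was that of each gene's longest transcript in GENCODE M21, not of all exons over which fragments were counted. Every pair of libraries differed by more than sampling noise (lowest chi-square per degree of freedom 38.08). The 10 genes and all lists were chosen with earlier results of these data known. Named genes were the 10 and Gata2, up to 4 per related list with the smallest unadjusted p, the 2 most alike per factor (predicted gene models left out), and sort markers. Some items of these lists are not reported here.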

Additional observations from a re-analysis of the deposited data

Results flagged for a closer look

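In 2 of the 22 groups of 4 libraries checked (10 genes and Gata2 in each genotype), 1 library stood apart from the other 3 by Dixon's criterion, and chance flags about 1 in 20 groups. Runx1 was at 84.5 CPM in Het replicate 2 and at 52.9 to 54.9 CPM in the other Het libraries. On the log2 scale this was a gap of 0.921 of the whole range. Erg was at 13.5 CPM in Het replicate 4 and at 28.0 to 31.3 CPM in the others, a log2 gap of 0.869 of the range. The library that stood apart was a different one for each gene.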

How the results depend on the processing

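Under 20 alternatives, 0 of the 10 genes passed the adjusted threshold. DESeq2 called 79 genes in all, against 0 by edgeR, none of them among the 10. Lyl1 (-0.93 to -0.29), Gfi1b (-0.88 to -0.42), Runx1 (-0.58 to -0.29) and Ldb1 (-1.51 to -0.46) kept their direction in all 20, with the values as log2 fold changes. Lmo2, at 0.00, turned to -0.07 with library size alone as the scaling and to -0.0027 with limma voom, and ran from -0.04 to 0.05 with single libraries left out. Etv6, at -0.09, turned to 0.02 with the GC and length trend removed and to 0.04 with a replicate block as well, and ran from -0.23 to 0.16 with single libraries left out. Cbfb ran from -0.01 to 0.26 in the same way. The cause of these turns was not tested. A replicate block called 0 genes and left Lyl1 at -0.57 and Gfi1b at -0.61. The deviations of same-numbered libraries correlated at 0.00565 to 0.0961, and not every library correlated best with its own number. Same-numbered libraries also share their sex, but the numbers were not taken as pairs. Ldb1 rested on 11 to 211 counts per library.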
